A study of Drosophila melanogaster with 2 samples.

Results

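Peaks of the tagged homeodomain protein lms that lay inside introns but close to a transcription start site (TSS) made up 1026 of 7521 reproducible peaks, or 13.6% (exact 95% binomial interval 12.9 to 14.4%, counting error only). A peak was a member when its summit lay inside a gene but in no annotated exon, more than 500 bp from any TSS and at most 2000 bp from the nearest TSS of a protein-coding gene. The choice used position alone, not the strength of the peak. Of 2758 intron summits more than 500 bp from a TSS, the members were 37.2%. The other 1732, called far intron peaks here, lay more than 2000 bp from any protein-coding TSS. The list also held 3451 promoter peaks with a summit within 500 bp of a TSS.

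Chromatin immunoprecipitation with sequencing (ChIP-seq) was performed on whole Drosophila melanogaster embryos, with males and females pooled, collected between 6 and 18 hours. The embryos came from the transgenic strain lms, whose insertion targets lms, and they carried the product of that gene (CG13424) with GFP at its C terminus. An antibody against GFP was used, and sonicated chromatin was in a size range of 200 to 800. There were 2 biological replicates of 1 group and no untreated or mutant group, so no test between conditions was possible. A separate age label does not match the hours given here. Whole embryos were used, so the cells in which the tagged protein met each site are not known, and peak lists hold no expression with which to check a tissue. Both replicates were called against the same control alignment. Coordinates below are those of dm6, counted from 1. The signal of a peak is the deposited score of the authors' caller, whose scale is not stated, so signals rank peaks within a list and are not compared between lists.

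As background, homeodomain proteins bind short A/T-rich sequences through a helix that reads the major groove, and many recognise a core of TAAT. lms is known from the development of a small set of body wall muscles in the fly. Introns near the start of a fly gene often hold enhancers, and many fly genes have alternative promoters, so that intron sequence of one transcript can be sequence just upstream of the start of another.

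The members of highest signal were A/T-rich at their summits. Windows reaching 50 bp to each side of the summit are shown for 6 of the 7 highest members. Composition does not set these apart, as the member not shown, in HmgZ, had 22.8% GC at its summit. Capitals mark the longest run made of A and T alone, which was 7 to 13 bp long. In CG11050, Trl and CG9663 a later run is equally long, and the first is marked. Each is the plus strand of dm6, taken from the RefSeq release 6 genome. They lie at chr2L:6612659-6612759 (CG11050), chr3R:11761007-11761107 (Lk6), chr2L:481043-481143 (ush), chrX:4910321-4910421 (CG32772), chr3L:14759470-14759570 (Trl) and chr2L:3302130-3302230 (CG9663).
CG11050: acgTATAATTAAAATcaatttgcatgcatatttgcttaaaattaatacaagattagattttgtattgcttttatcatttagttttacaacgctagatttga
Lk6: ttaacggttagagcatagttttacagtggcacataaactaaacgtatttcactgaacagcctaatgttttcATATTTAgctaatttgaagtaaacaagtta
ush: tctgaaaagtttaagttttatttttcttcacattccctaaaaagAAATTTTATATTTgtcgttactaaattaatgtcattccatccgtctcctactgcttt
CG32772: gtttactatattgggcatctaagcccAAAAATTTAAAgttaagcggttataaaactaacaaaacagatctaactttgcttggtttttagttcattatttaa
Trl: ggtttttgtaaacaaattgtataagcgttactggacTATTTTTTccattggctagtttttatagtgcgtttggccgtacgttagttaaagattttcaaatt
CG9663: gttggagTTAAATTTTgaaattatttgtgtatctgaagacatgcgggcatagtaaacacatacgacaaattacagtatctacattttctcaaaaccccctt
Their GC content was between 22.8% (CG11050) and 33.7% (CG9663).

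The homeodomain core TAATTA was in 125 of the 1026 summit windows. Members of high signal that held it are shown next, with the match in capitals, again on the plus strand; TAATTA reads the same on both strands. They lie at chr2L:6612659-6612759 (CG11050), chrX:13640453-13640553 (NFAT), chrX:4324938-4325038 (norpA) and chrX:16332962-16333062 (CG9921).
CG11050: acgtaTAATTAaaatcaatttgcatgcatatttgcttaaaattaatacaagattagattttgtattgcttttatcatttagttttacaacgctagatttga
NFAT: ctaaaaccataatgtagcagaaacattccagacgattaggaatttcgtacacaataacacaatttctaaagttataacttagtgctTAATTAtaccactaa
norpA: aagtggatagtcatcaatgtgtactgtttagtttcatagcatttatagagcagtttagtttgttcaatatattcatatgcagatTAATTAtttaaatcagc
CG9921: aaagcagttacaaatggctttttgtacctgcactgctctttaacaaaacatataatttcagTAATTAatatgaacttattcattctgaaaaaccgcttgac
The CG11050 window is in both sets, and its match lies inside the A/T run marked in the first set. These 4 members ranked between 3 and 138 in the IDR list, the list of reproducible peaks that passed the irreproducible discovery rate procedure.

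The strongest member lay in CG11050, with a signal of 8929 and rank 3 of 7521. It spanned 6612346 to 6612995 on 2L and ranked 2 in replicate 1 and 5 in replicate 2. Its summit was 1022 bp downstream of a CG11050 start site, in an intron of only 140 bp, so the 650 bp interval reached into exons on both sides of it. That start site had a promoter peak of its own, with a signal of 135 and rank 7516. The intron peak thus stood near the top of the list and the promoter peak of the same start site near its end.

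Lk6, which encodes a kinase related to the MNK kinases, held the next member (3R, 11760799 to 11761465, signal 6437). It ranked 7 in replicate 1 and 11 in replicate 2, and its summit was 978 bp upstream of an internal Lk6 start site. The member in the first intron of ush, which encodes a Friend-of-GATA cofactor, had a signal of 6197 and ranked 11 and 15 in the replicates. Its nearest protein-coding start site, 1405 bp away, belonged to the neighbouring gene cbt and had a promoter peak with a signal of 1995. CG32772 followed with 6024, at 1269 bp downstream of its start site, ranking 12 and 9. Trl encodes the GAGA factor, a protein that binds GA repeats. Its strongest member had a signal of 5389 in an intron of 3233 bp and ranked 16 in replicate 1 and 17 in replicate 2. In the ranks of both replicates these members stood between 7 and 17, each list holding 30000 peaks.

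The next 7 members had signals between 2991 and 4656. HmgZ, which encodes an HMG box protein, had a peak of 4656 at 614 bp upstream of an internal start site. In CG9663, which encodes a transporter of the ABC family, a peak of 4527 lay 950 bp downstream of the start. A peak of 3832 was found in chif, which encodes an activator of a replication kinase. CG4496 (3446), CG9837 (3093) and Reph (3050) each had their member upstream of an internal start site of their own. simj, which encodes a subunit of a nucleosome remodelling complex, had a peak of 2991 in an intron of 19639 bp. Of the 12 highest members, 10 lay in a first intron of the host gene, and the exceptions were CG11050 and Trl. Ranks of the 12 ran from 2 to 77 in replicate 1 and from 5 to 92 in replicate 2.

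At the other end, the weakest members lay in mdy, mbl and IA-2, each with a signal of 135. mdy encodes an enzyme of triglyceride synthesis and ranked 8302 in replicate 1 and 6065 in replicate 2. mbl, which encodes a splicing regulator, ranked 6417 in replicate 1 and had no partner in replicate 2. IA-2 encodes a protein of secretory vesicles and ranked 7391 and 10326. Over all members the signal had a median of 285, with quartiles at 184 and 529.

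The members were found in both replicates in most cases. The IDR list keeps peaks for their agreement between replicates, so a high share follows in part from that choice. A summit within 150 bp was present in both full lists for 960 of 1026 members (93.6%, interval 91.9 to 94.99%). Replicate 1 held a partner for 1012 (98.6%) and replicate 2 for 974 (94.9%). None lacked a partner in both, while 52 were matched in replicate 1 alone and 14 in replicate 2 alone. The 14 included a pair of members in fru, which encodes transcription factors of the sex determination pathway. CHES-1-like, a forkhead gene, had the highest-ranked member without a partner in replicate 2, at rank 1249 in the IDR list and 1174 in replicate 1. These genes were singled out after their values were seen.

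Among the 7521 highest peaks of each replicate, 981 members (95.6%) were present in replicate 1 and 836 (81.5%) in replicate 2. Ranks of the 960 matched members correlated with a Spearman rho of 0.851. The points are peaks that were kept for agreement and share their libraries and control, and not independent samples. A member in CG10543 ranked 842 in replicate 1 and 12080 in replicate 2. The opposite case was capu, which encodes an actin nucleator, at 19554 and 3259; both were picked for their ranks. Far intron peaks were matched in both replicates in 95.6% and promoter peaks in 96.0%.

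**Figure D1:**
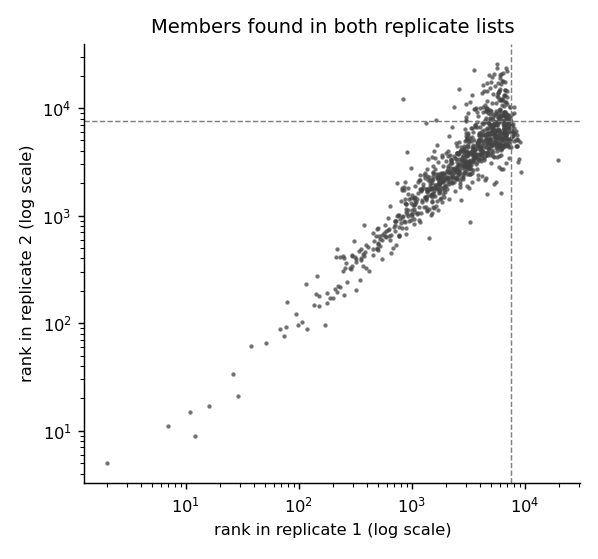
Each point is 1 of the 960 members with a summit within 150 bp in both replicate lists, by its rank in replicate 1 (horizontal, log scale) and replicate 2 (vertical, log scale), with dashed lines at rank 7521. Points follow the diagonal at high ranks and spread towards low ones, and more members lie past rank 7521 in replicate 2 than in replicate 1.

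Members ranked between the other classes of peak. Their median rank was 3510 of 7521, against 4198 for far intron peaks and 3349 for promoter peaks. Of the members, 144 (14.0%, 11.97 to 16.3%) were among the 1000 highest IDR peaks. The share was 7.74% (6.52 to 9.10%) for far intron peaks and 18.1% (16.8 to 19.4%) for promoter peaks. Over the whole list it was 1000 of 7521, a share that lies within the interval of the members. Median interval widths were 322 bp for members, 278.5 bp for far intron peaks and 372 bp for promoter peaks. Weaker peaks of the pooled list met the rule in 3065 of 22479 cases (13.6%), the same share as in the IDR list.

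Intron sequence that meets the rule, called eligible intron here, covered 10.1 Mb, or 7.35% of the chromosome arms. It held 101.5 peaks per Mb (exact Poisson 95% interval 95.4 to 108, counting error only), and far intron sequence held 39.7 (37.8 to 41.6). Within eligible intron the density was highest nearest to the start site. It was 134 peaks per Mb between 500 and 750 bp, 114 up to 1000 bp, 86.6 up to 1250 bp, 96.2 up to 1500 bp, 86.4 up to 1750 bp and 79.3 up to 2000 bp. The density between 500 and 1000 bp was 1.50 times that between 1500 and 2000 bp (interval 1.28 to 1.76). Beyond the outer limit it was lower, at 60.8 up to 5000 bp, 49.8 up to 10000 bp and 22.3 beyond.

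The innermost bin differed between the sides of the start site. Upstream of it, between 500 and 750 bp, there were 177 peaks per Mb (148 to 211), and downstream 110 (92.2 to 129). The highest 7521 peaks of replicate 1 alone gave 172 upstream and 109 downstream, and those of replicate 2 gave 191 and 104. Between 750 and 1000 bp the order was the other way, with 92.2 (70.0 to 119) upstream and 125 (106 to 146) downstream, and those intervals overlap. The intervals of 192 members (18.7%) reached to within 500 bp of a TSS. The part of such wide peaks in the innermost bin was not tested.

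**Figure D2:**
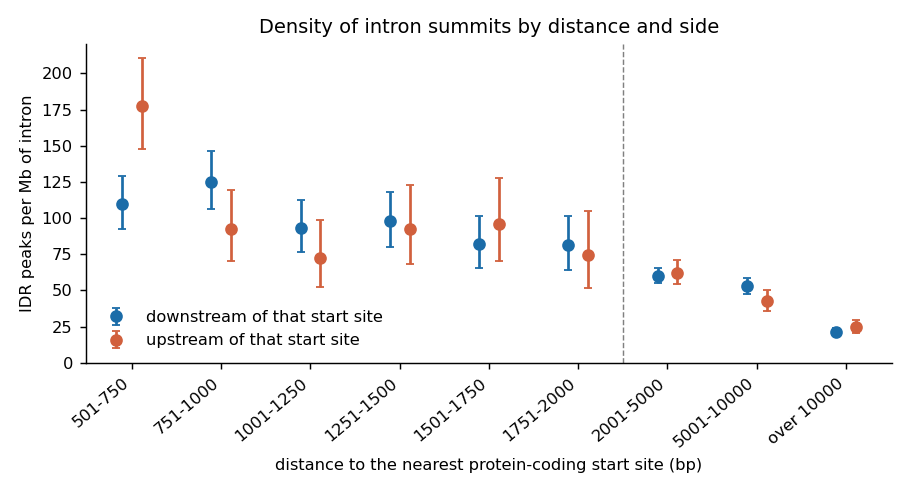
IDR peaks per Mb of intron sequence are plotted against the distance of the summit from the nearest protein-coding start site (bp), separately upstream and downstream of it, with exact Poisson 95% intervals. The dashed line marks 2000 bp, the outer limit for members; the densities at the left are above those at the far right on both sides, and in the innermost bin the upstream value of 177 stands above the downstream value of 110.

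Most members lay downstream of a start site of their own host gene. This was the case for 655 of 1026 (63.8%). Another 282 (27.5%) lay upstream of an internal start site of the host, that is, in the intron of a longer transcript and in front of a shorter one. The nearest start site belonged to another gene in the rest, with 71 members (6.92%) upstream of it and 18 (1.75%) downstream. Over both kinds of gene, 65.6% (62.6 to 68.5%) were downstream, close to the 66.9% of eligible bases that are. The members' side of the start site was therefore near that of the sequence available.

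First introns held most members. A first intron of some transcript of the host held 837 (81.6%, 79.1 to 83.9%), a second intron at best 128 (12.5%), the next intron 32 (3.12%) and later ones 29 (2.83%). Counting a first intron of any gene, the share was 82.0% of members against 66.6% of eligible bases. Eligible first introns held 125 peaks per Mb (117 to 134) and later introns 54.8 (47.2 to 63.3). The share in a first intron was 91.0% for members downstream of their own start, 68.4% for those upstream of an internal start and 47.9% for those upstream of another gene's start. The eligible bases were not split in this way, so the part of the available sequence in these shares was not tested.

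The introns were long, with a median of 4670 bp and a range from 140 to 73902 bp. The summit lay a median of 761 bp from the nearest edge of its intron. The distance to the nearest protein-coding TSS had a median of 1050 bp, with quartiles at 740 and 1479 bp. Measured from the outermost start of the host the median was 2000 bp and the upper quartile 10040 bp. Intervals of 79 members (7.70%) overlapped an exon. Another IDR summit lay within 2000 bp of 559 members (54.5%), and 26 (2.53%) shared their interval with another summit. These shares were not computed for the other peaks of the list, so they are not read as particular to members.

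At the limits of the rule, CG6891, bun and jar, which encodes a myosin, lay 1 or 2 bp past the 500 bp limit, with signals of 484, 301 and 768. Just inside that limit, and so not members, were peaks in CG10383 at 500 bp, bark at 499 bp and MESR3 at 498 bp, with signals of 250, 712 and 220. Near the outer limit were members in CG31145 at 1999 bp (signal 158), CG42709 at 1998 bp (537) and pot at 1991 bp (1446). Peaks in hiw and lncRNA:CR44320 at 2003 bp (802 and 579) and in ps at 2004 bp (226) just missed it.

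A promoter peak at the same start site was present for a minority of members. The nearest protein-coding TSS had an IDR summit within 500 bp for 332 of 1026 (32.4%, 29.5 to 35.3%). Of all 19275 protein-coding start sites, 26.2% had one, and for far intron peaks the share was 29.0% (26.9 to 31.2%). With the IDR list cut to peaks above its median signal, the share for members was 19.4%. That cut also leaves out weaker promoter peaks, such as that of CG11050 at rank 7516. It was 20.9% with promoters of 250 bp, so its size depends on those choices. With an inner limit of 250 bp it came to 48.7%, but there a member within 500 bp of the TSS counts as its own promoter peak. The share was 39.4% (35.6 to 43.2%) for members downstream of their own start and 21.6% (17.0 to 26.9%) for those upstream of an internal start. It was 18.3% upstream of another gene's start and 0 of 18 downstream of one, which allows up to 18.5% by the exact interval. Among the 332 pairs the promoter peak ranked higher in 169 (50.9%, 45.4 to 56.4%). CG31145 was an example of that order, with a member of 158 and a promoter peak of 3867, and CG11050 of the reverse.

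Summits of members were poor in GC relative to the sequence beside them. The mean GC content of windows reaching 50 bp to each side of the summit was 31.4% (SD 8.12, n = 1026), and that of flanks of the same length centred 500 bp away 42.4% (SD 9.64). Summits were below their own flank in 835 of 1026 members (81.4%, 78.9 to 83.7%). All eligible intron, cut into 100173 tiles of that length, had a mean of 39.0% (SD 9.16). Flanks lay in an exon for 195 members (19.0%), and flanks outside exons had a mean of 40.9%. Summits of far intron peaks had 31.0% against 42.1% in their flanks, and promoter summits 32.6% against 45.7%, so the drop at the summit was seen in all 3 classes. Weaker pooled peaks that met the rule had 39.0% at the summit and 41.2% in the flank.

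GC content was lowest at the members of highest signal. It was 29.0% in the first 250 members by signal, 30.5% in the next 250, 32.7% in the 250 after those and 33.2% in the last 276. Flanks of these groups lay between 41.5% and 43.3% with no such order. Runs of at least 15 bp of A and T alone were in 20.9% (18.4 to 23.5%) of summit windows, 5.85% of flanks and 9.75% of tiles.

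**Figure D3:**
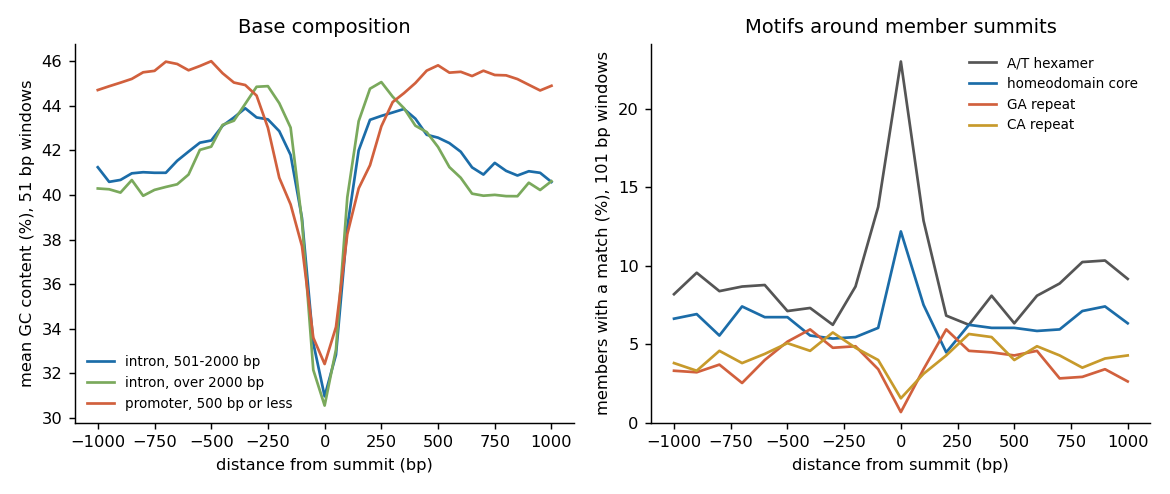
The left panel plots mean GC content (%) of 51 bp windows against distance from the summit (bp) for members, far intron peaks and promoter peaks. The right panel plots the share of members (%) with a motif match in windows of 50 bp to each side at each distance: the A/T hexamer and the homeodomain core peak at the summit, at 23.0% and 12.2%, and the GA repeat drops there to 0.682%.

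The homeodomain core TAATTA was in 12.2% (10.2 to 14.3%) of summit windows and 5.56% (4.23 to 7.14%) of flanks, a ratio of 2.19. It was in 8.25% of all tiles of eligible intron. Far intron summits held it in 11.3% and promoter summits in 11.7%. Windows of like GC content were then compared. Below 25% GC the core was in 19.8% of members and 20.8% of tiles, from 25 to 30% in 12.7% and 13.9%, from 30 to 35% in 11.8% and 10.3%, from 35 to 40% in 9.09% and 8.07%, and above 40% in 2.04% (3 of 147 members) and 4.36%. The interval of each of these member shares holds the share of tiles. Among hexamers found in at least 50 members, 549 in all, TAATTA was number 62 by the ratio of summits to flanks. Higher ratios were found for 18 of the 36 hexamers that hold neither G nor C, whose median ratio was 2.24. The variant TAATTG, counted on both strands, was in 10.5% of summits, 9.84% of flanks and 11.8% of tiles.

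Other A/T-rich sequences were more frequent at summits. ATATTA, searched on both strands, had the highest ratio of the 549 hexamers: it was in 23.0% (20.5 to 25.7%) of summits, 6.53% of flanks and 11.5% of tiles, a ratio of 3.52. In windows of like GC content it was in 40.9% of members and 37.8% of tiles below 25% GC, 27.0% and 23.5% from 25 to 30%, 17.9% and 16.2% from 30 to 35%, 11.4% and 9.69% from 35 to 40%, and 5.44% and 3.74% above. The interval of each member share holds the share of tiles. Far intron summits held ATATTA in 24.0% and promoter summits in 22.9%. AATATT followed with 3.33 (10.6% of tiles) and TCTTAA, searched on both strands, with 3.21 (6.92% of tiles). A degenerate sequence of the type bound by Mef2, a muscle differentiation factor, was in 8.58% (6.94 to 10.5%) of summits, 2.63% of flanks and 4.29% of tiles. It is itself A/T-rich and was not compared in windows of like GC content, and its share was 7.74% at far intron and 8.95% at promoter summits. The Tinman element TCAAGTG went the other way, in 0.975% (0.468 to 1.79%) of summits, 2.73% of flanks and 2.01% of tiles. CTTTGAT, of the type bound by TCF, the factor of the Wingless pathway, was in 3.41% of summits, 1.46% of flanks and 2.06% of tiles. In the peaks of replicate 2 alone it was in 2.21% of summits and 2.41% of flanks, so that difference was not found there. Below 25% GC, CTTTGAT was in 4.13% of members (2.00 to 7.47%, 10 of 242) and 1.93% of tiles, a share just outside that interval. It was in 3.47% and 2.54% from 25 to 30%, 3.66% and 2.48% from 30 to 35%, 3.03% and 2.37% from 35 to 40%, and 2.04% and 1.66% above. The intervals of those member shares hold the shares of tiles.

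Repeats of GA and CA were rarer at summits than beside them. GAGAGAG, on both strands, was in 7 of 1026 summit windows (0.682%, 0.275 to 1.40%), in 4.87% (3.64 to 6.37%) of flanks and in 1.67% of tiles. Flanks outside exons held it in 5.54%. CACACACA, on both strands, was in 1.56% (0.894 to 2.52%) of summits, 4.19% of flanks and 2.50% of tiles. Both repeats are less A/T-rich than the summits. Far intron and promoter summits also held few, with 0.635% and 0.840% for GAGAGAG and 1.15% and 0.956% for CACACACA. The GA repeat was seen in 0.580% of summits in replicate 1 alone and 0.302% in replicate 2 alone.

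The elements of DREF and M1BP, known from fly core promoters, were rare at members and in eligible intron alike. TATCGATA, the element of DREF, was in 1 summit window (0.0975%, 0.00247 to 0.542%) and in 3.22% of promoter summits, with 0.205% of tiles. GGTCACAC, of the type bound by M1BP, was in 2 windows (0.195%, 0.0236 to 0.702%) and 1.68% of promoter summits, with 0.135% of tiles. The interval of each member share holds the share of tiles. The Twist-type E-box CATATG was in 5.36% of summits (4.06 to 6.92%), 4.39% of flanks and 3.62% of tiles. The Snail-type E-box CAGGTG, the opposite case, was in 1.95% of summits, 3.51% of flanks and 3.54% of tiles. Each was counted on both strands.

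Members lay in 773 host genes, with 611 holding 1 member, 113 holding 2, 27 holding 3, 9 holding 4 and 13 holding 5 or more. Hosts were protein-coding for 1021 members. The other 5 lay in lncRNA:CR44833, lncRNA:CR44691, lncRNA:CR34044, lncRNA:CR44779 and lncRNA:CR44999, with signals between 182 and 716. Of all members, 87 lay in the span of more than 1 gene. The first of the noncoding hosts, with 716, was 1509 bp upstream of ovo, which encodes a zinc finger protein of epidermis and germ line.

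CG1677 held the most members, with 8. It spans 124709 bp on X, and all 8 lay in front of start sites of other genes within that span, none of them in a first intron of CG1677. Their signals ranged from 157 to 1651. Tlk, which encodes a chromatin-associated kinase, held 7, all in first introns, with signals from 156 to 991. CG32264 held 6 with a top signal of 827, and SNF4Agamma, which encodes a subunit of AMP-activated kinase, held 6 with a top signal of 369. Every member of these 4 genes was present in both replicates.

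NFAT, which encodes a transcription factor, held 5 members, all in first introns. Their signals were 601, 2868, 1225, 672 and 206 in the direction of transcription, and 3 of them lay within 1000 bp of each other in front of one internal start site. shn encodes a zinc finger protein of the Dpp pathway and held 5, from 138 to 1541; 4 were present in both replicates. The guanine nucleotide exchange factor gene C3G held 5, of which 4 were in both. RhoGAP18B and CG42258 also held 5 each. psq, which encodes a BTB protein that binds GA repeats, held 5 with signals from 163 to 482.

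**Figure D4:**
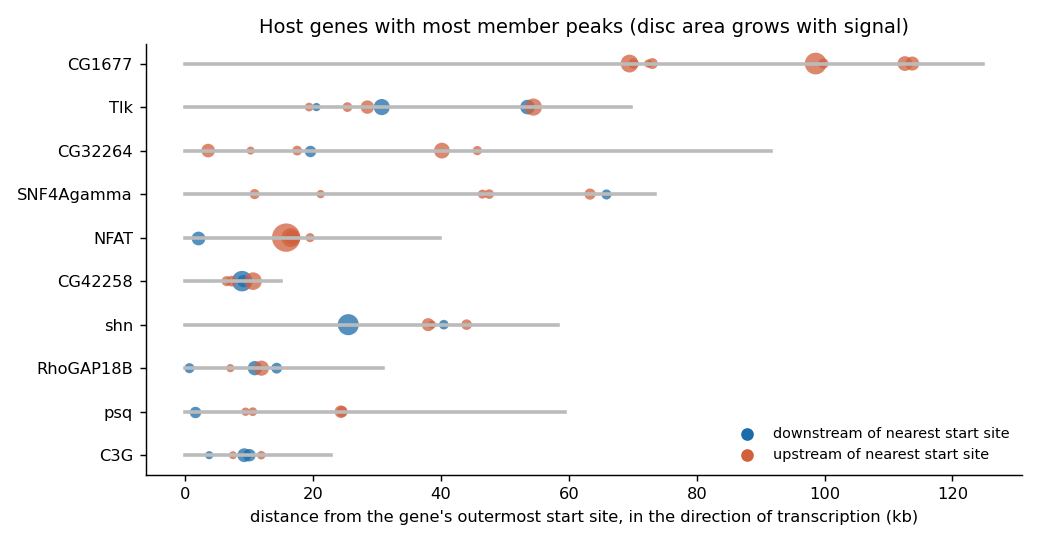
Grey lines are the 10 host genes with most members, drawn from the outermost start site in the direction of transcription (kb), and each disc is a member peak with an area that grows with its signal. Colours separate members downstream of their nearest start site from those upstream; the 8 members of CG1677 are all upstream, and NFAT has the largest disc, with a signal of 2868.

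The density was 85.7 peaks per Mb of eligible intron on 2L (72.6 to 100), 93.6 on 2R, 104 on 3L, 108 on 3R and 118 on X (103 to 134). Chromosome 4 held 2 members, or 17.4 per Mb (2.10 to 62.7). Y held 0 members in 10931 eligible bases, which allows up to 337 per Mb.

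Of 8994 protein-coding genes with eligible intron, 820 held a member in their span, or 9.12%. That share rose with the amount of eligible sequence. It was 0.622% for genes with up to 500 eligible bases, 5.59% for up to 1000, 15.8% for up to 2000, 28.0% for up to 4000 and 41.9% above that. Genes with a member had a median of 2850 eligible bases and genes without one 310. The 18 gene groups described next had median amounts from 439 to 3666.5 bases, so each share is given beside that of all genes in the size class of the group's median gene. Genes within a group differ in length, so that share is a rough background, and no test was made of any group. Among peaks above the median signal of the IDR list, 5.33% of genes with eligible intron held a member, and with an outer limit of 1000 bp 5.66% did.

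In the EGFR and FGF pathways, the receptor tyrosine kinase pathways of the embryo, 15 of 26 genes with eligible intron held a member (57.7%, 36.9 to 76.6%). The median gene of this group had 1500 eligible bases, a class in which 15.8% of all genes held one. There were 19 members in the group, or 306 per Mb. The highest peaks of replicate 2 alone placed a member in 10 of the 26 genes and those of replicate 1 alone in 15. IDR peaks above the median signal placed one in 6. Among ligands, ths, an FGF of the mesoderm, had a member of 1055, at rank 644 in replicate 1 and 593 in replicate 2. Krn, an EGFR ligand, had one of 158 that is shared with the overlapping gene Ndfip and was not matched in replicate 2. S, which helps EGFR ligands leave the cell, had one of 804, and rho and ru, which encode proteases that release those ligands, had 205 and 142.

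Among receptors, the FGF receptor gene htl had a member of 209 and Egfr one of 183, whose nearest start site belonged to CG30286. drk, which encodes an adaptor that links receptors to Ras, had 1192 at rank 522 in replicate 1 and 521 in replicate 2; its nearest start was that of mars. stumps, which encodes an adaptor of FGF receptors, had 208 and the MEK gene Dsor1 had 158. Of the inhibitors, aos, a secreted antagonist of EGFR, had 354 and sty, an inhibitor inside the cell, had 269. Among nuclear effectors, edl, a regulator of ETS factors, had the highest signal of the group, 2046, at rank 199 in replicate 1 and 170 in replicate 2, with its summit 1815 bp downstream of its start. pnt, an activator of the ETS family, held 3 members of up to 215, and the ETS repressor gene aop held 2 of up to 170. All but the 4 of highest signal (edl, drk, ths and S) are named to complete the group. Members were thus present from ligand to nuclear effector.

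The Dpp pathway, which signals through BMP receptors, held members in 7 of 19 genes (36.8%, 16.3 to 61.6%), with 268 per Mb, and 15.8% of all genes in its size class held one. shn had 1541 at rank 314 and 416, and Mad, the signal transducer, had 1536 at rank 350 and 254. The receptor genes wit and tkv followed with 948 and 525. For wit the nearest start site was that of CG32259. Their summits were at 22.8% (shn), 24.8% (Mad), 31.7% (wit) and 18.8% (tkv) GC.

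Polycomb and Trithorax group genes and their partners, which maintain repressed or active chromatin states, held members in 8 of 24 (33.3%, 15.6 to 55.3%). These 17 members gave 473 per Mb of eligible intron. The median gene of the group had 774.5 eligible bases, and of all genes with 500 to 1000 bases 5.59% held one. However, all 8 genes with a member had more, from 1306 (trx) to 7355 bases (psq). In the size classes of those amounts 15.8 to 41.9% of all genes held one, so 5.59% does not stand for them. Trl had 5389, ph-p, a core Polycomb group gene, 1342, psq 482 and tara 287. ph-p ranked 395 in replicate 1 and 534 in replicate 2. The member of brm, which encodes a remodelling ATPase and is named after its value was seen, had 213 and lay at a start site of the overlapping gene CG17029.

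Ecdysone response and nuclear receptor genes held members in 7 of 16 (43.8%, 19.8 to 70.1%). The median was 2985.5 eligible bases, a class in which 28.0% of all genes held one, and the interval includes that share. The group held 98.6 members per Mb, beside 101.5 for all eligible intron. Hr4 (531) and br (528) were the highest, followed by EcR, the ecdysone receptor, at 293 and Eip75B at 241. The member of br was upstream of a start site of Mur2B, a gene that overlaps it. Wingless and Hedgehog genes held members in 8 of 28 (28.6%, 13.2 to 48.7%), beside 15.8% in their size class, which lies within the interval. They were highest in the kinase gene sgg (581), the Hedgehog coreceptor gene boi (457), the Wingless receptor gene fz (312) and the ligand gene Wnt4 (233). The start site nearest to the member of fz was that of CG13482, and for Wnt4 it was that of CG31909. Hippo pathway genes held them in 5 of 17 (29.4%, 10.3 to 56.0%), also beside 15.8%, with dco (617), mats (385), app (321) and sd (248).

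Muscle identity genes, the transcription factors that give each body wall muscle its character, held a member in 1 of 24 (4.17%, 0.105 to 21.1%), sd with 248. Their median was 1429.5 eligible bases, a class in which 15.8% of all genes held one, and the interval includes that share. Mesoderm and heart genes held members in 4 of 19 (21.1%), beside 15.8% in their size class: zfh1 with 1441, Doc1 with 323, htl with 209 and mib2 with 152. Sarcomere genes held them in 3 of 22 (13.6%), beside the same 15.8%, namely tmod (1096), which encodes a cap of actin filaments, Zasp66 (529) and the tropomyosin gene Tm1 (207).

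Myoblast fusion genes held members in 5 of 17 (29.4%, 10.3 to 56.0%), beside 15.8% in their size class. kirre, an adhesion receptor gene of founder cells, had 912, at a start site of the overlapping gene CG32795. mbc, which encodes an activator of Rac, had 629, rols 346 and dock 220. siz, named after its values were seen, held 4 members, the highest at 179. Muscle attachment and guidance genes held them in 7 of 24 (29.2%, 12.6 to 51.1%), also beside 15.8%. The intervals of both groups include that share. fra, a Netrin receptor gene, had 1022, nearest to a start site of CG33752, and rhea, which encodes Talin, had 936. LanA, a laminin subunit gene, had 442 and NetB, a Netrin gene, 423, nearest to a start site of hog. Their ranks were 617 and 956 (fra), 762 and 792 (rhea), 2189 and 2294 (LanA) and 2088 and 4004 (NetB) in replicates 1 and 2.

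Groups that stand for other cell types were set beside their size classes in the same way. Glial genes held them in 3 of 10, beside 15.8% in their size class, with loco (5 members, up to 313), pnt (215) and nrv2 (192, with no partner in replicate 2). In the highest peaks of replicate 2 alone that count was 1. Neuronal genes held them in 4 of 14 (28.6%), beside 28.0%, in elav (670), fne (378), Rbp9 (267) and cpo (249). Epidermal and tracheal genes held them in 3 of 13 (23.1%), beside 15.8%, in crb (649.6), grh (492) and ovo (149). Gut, fat body and blood genes held them in 2 of 13 (15.4%), beside 15.8%, in ush (6197) and lab (166). Hox genes held them in 2 of 10 (20.0%), beside 15.8%, in Abd-B (1221) and lab. Segmentation and Notch genes had 1 each, ptc (192) among 13 genes and neur (751) among 14, beside 0.622% and 15.8%. For Notch genes replicate 2 alone gave 2. The interval of each of these groups includes the share of its size class.

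**Figure D5:**
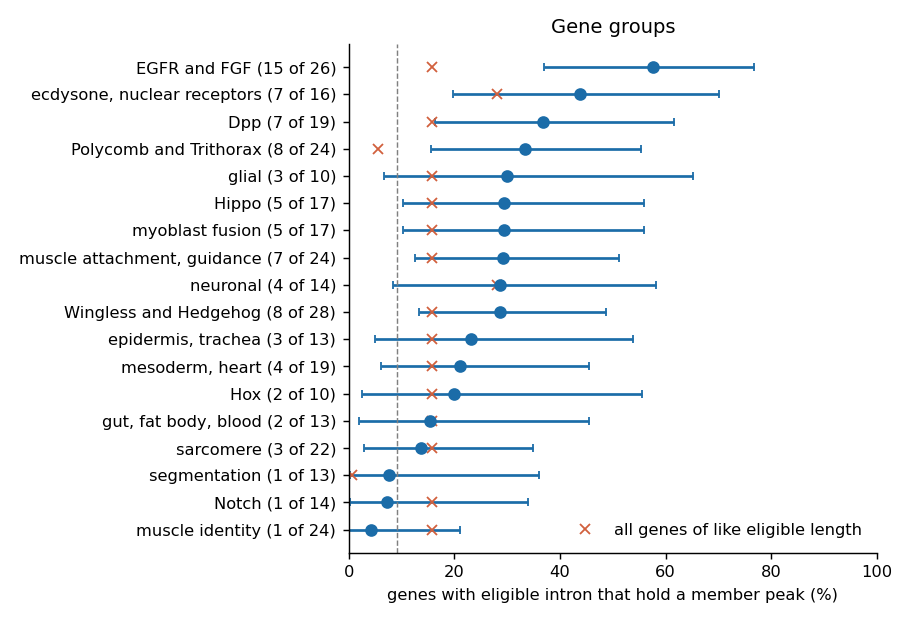
For each of 18 gene groups, the point is the share (%) of genes with eligible intron that held a member peak, with its exact binomial 95% interval, and the dashed line is the 9.12% of all protein-coding genes with eligible intron, and each cross is the share of all genes in the size class of the group's median gene. The EGFR and FGF group is highest at 57.7% and muscle identity lowest at 4.17%; groups differ in the amount of eligible intron per gene.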

How the data were processed

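Signals and −log10 q-values of peaks were deposited by the authors for each of the 2 replicates, both pooled, and an IDR list. The deposited signal is a score and served for ranks within a list. Deposited −log10 q-values did not vary over the IDR list and went unused. The deposited notes name 1 control alignment for all lists. Which aligner, caller and IDR settings were used, and how deeply libraries were read, is not given in the sources used here. Intervals therefore cover counting error over peaks alone.

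Summits were set against Ensembl release 115 genes, with transposable elements left out as genes, and against the RefSeq release 6 genome, both on dm6. Where genes overlapped, the host was the gene of the nearest start site. Eligible bases were counted exactly. Motifs were searched on both strands of windows reaching 50 bp to each side; flanks lay 500 bp to the left for odd and to the right for even ranks. Shares carry exact (Clopper-Pearson) and densities exact Poisson 95% intervals. Software was Python 3.11.15 with pandas 2.3.3, scipy 1.17.1, numpy 2.4.6 and, for plots, matplotlib 3.10.9. Computations were tested on simulated peaks. Members and lists were chosen with earlier results of these data known. Named are the 12 highest and 3 lowest members, 10 hosts with most members, up to 4 genes per list by signal, and members nearest the limits; other names are marked as such. Alternatives covered each replicate alone, the rule's limits, windows, flanks and matching.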

Additional observations from a re-analysis of the deposited data

How the results depend on the processing

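No paired analysis was possible because there was only 1 group. Of 74 recomputed values of main results, 45 stayed within their spread or interval, or within 1.5 times for the number of members, and 29 moved. No value changed direction, but counts and shares have no sign to change. For the GC difference and the TAATTA ratio the spread is the SD of the 2 single-replicate values, set around the reported value. For the GC difference it ran from -11.04 to -10.95, so small shifts counted as moved. Members numbered 532 with an inner limit of 1000 bp and 480 with an outer limit of 1000 bp; each replicate alone gave 995 to 1034. The downstream share was 55.1% with an inner limit of 250 bp, 69.7% with 1000 bp, and 61.5% with an outer limit of 1000 bp. Peaks above the median signal of the IDR list gave 84.4% in a first intron, 19.4% with a promoter peak, a GC difference of -12.1 points, a TAATTA ratio of 2.96, 5.33% of genes holding a member and 98.9% of members in both replicates. The share with a promoter peak was 48.7% and 36.1% with inner limits of 250 and 1000 bp, 28.5% with an outer limit of 1000 bp, and 20.9% with promoters of 250 bp. At the inner limit of 250 bp, members within 500 bp of the TSS counted as their own promoter peak. The cut at the median signal also left out weaker promoter peaks. The GC difference, -11.0 as reported, was -11.4 in 51 bp windows and -8.77 in windows reaching 100 bp to each side, -12.2 with flanks 300 bp away, -11.1 with both flanks, and -10.9 to -10.8 in single replicates. The TAATTA ratio was 1.92 in the wider windows and 1.74 to 2.09 in single replicates. Genes holding a member were 7.11% with an inner limit of 1000 bp, and 5.66% and 10.4% with outer limits of 1000 and 3000 bp. Members in both replicates were 85.1% and 96.6% with summits matched within 75 and 300 bp, and 77.9% among the highest peaks of each list. The density ratio ran from 1.46 to 1.63 and stayed within its interval. With transposable elements kept as genes, an alternative chosen after seeing the data, there were 1017 members. Of 54 recomputed counts of genes per group 37 stayed within 1.5 times and 17 did not; 15 of the 17 were at peaks above the median signal, a smaller set, and the others were glial (1) and Notch (2) genes in replicate 2 alone. The replicates share 1 control, the signal scale is unstated, and peaks below the lists' ends were not analysed here.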
